A study of Bos taurus with 43 samples.

Results

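Of 43 uterine luminal libraries, 7 were the most concentrated in their most abundant genes: the 10 largest counts of each took over 8% of its total counts. The other 36 libraries stayed under 8%. The 7 were chosen by this share, computed for every library from its own 10 largest counts, so the share and the counts of those genes are described here without a test. The study collected luminal cells of the endometrium with a cytology brush from 43 multiparous Angus x Brahman cows on day 4 of a synchronized cycle, transferred 1 in vitro-produced embryo on day 7 and scored pregnancy around day 30. Every cow had carried a progesterone-releasing device, was given GnRH and PGF2alpha analogues and was seen in estrus, and each gave 1 poly-A RNA-seq library. The 7 libraries over 8% came from 4 pregnant and 3 nonpregnant cows, 2 of them in the first round of synchronization (block 1) and 5 in the second (block 2). The other 36 came from 21 pregnant and 15 nonpregnant cows, 19 in block 1 and 17 in block 2.

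The luminal epithelium lines the uterine cavity and secretes much of the fluid that feeds the embryo before it attaches. Secretory epithelia can commit a large part of their messenger RNA to a few products, so a sequencing library of such cells can be more or less concentrated in its most abundant genes. Because counts are shares of a fixed number of reads, a larger share for some genes leaves less for all others. Brushed material can hold other cells besides epithelium. The deposited files give Ensembl identifiers without symbols, and none could be matched, so no gene is given a name or function, the epithelial label could not be checked against marker genes, and markers of other cell types were not analysed here. In such bulk samples a difference in the make-up of cells and a difference in RNA per cell cannot be told apart.

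The share of the 10 largest counts was 11.3% in pregnant replicate 14, 11.01% in nonpregnant replicate 3, 9.95% in pregnant replicate 4 and 9.75% in pregnant replicate 16. It was 9.27% in nonpregnant replicate 16, 8.48% in pregnant replicate 24 and 8.02% in nonpregnant replicate 14. In the other 36 libraries it ran from 3.70% through a median of 5.25% to 7.98%. The boundary at 8% fell in no gap: nonpregnant replicate 14 lay just inside at 8.02%, and nonpregnant replicate 15 at 7.98% and pregnant replicate 13 at 7.84% lay just outside. Below them nonpregnant replicate 17 had 7.11%, and the remaining 33 libraries had 6.29% or less. The mean share was 9.69% ± 1.22 (SD, n = 7) over 8% and 5.35% ± 0.882 (SD, n = 36) in the others, 4.34 percentage points apart.

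**Figure D1:**
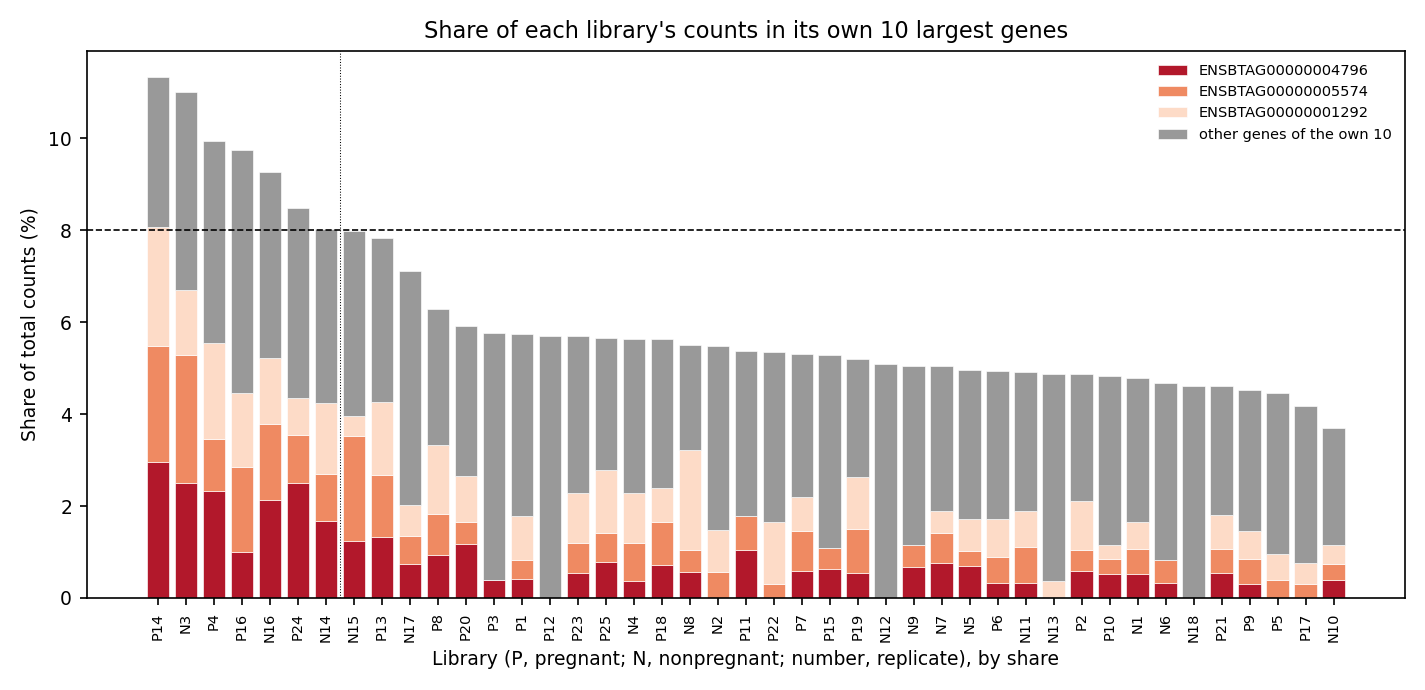
Share of total counts (%) held by each library's own 10 largest genes, with libraries in order of that share and the 7 over 8% left of the dotted line. Coloured parts are the 3 leading genes where they are among the 10, and grey is the rest of the 10. The coloured parts sum to between 4.25% and 8.08% in the 7 libraries, while the grey parts differ less. Grey holds more genes in libraries where fewer of the 3 are among the 10.

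A set of 3 identifiers carried most of the concentration, which is why they are named, after their values were seen. ENSBTAG00000004796 took 2.96%, 2.50%, 2.33%, 1.00%, 2.13%, 2.50% and 1.68% of counts in the 7 libraries, in the order of share given above. In the other 36 libraries it took 0.134% to 1.32%, with a median of 0.522%. Its median was thus 4.46 times as high over 8%, and 4 of the other 36 libraries exceeded its lowest value among the 7, that of pregnant replicate 16.

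ENSBTAG00000005574 took 2.52%, 2.79%, 1.13%, 1.84%, 1.65%, 1.05% and 1.02% in the same 7 libraries, against 0.0858% to 2.29% and a median of 0.501% in the others. Only 2 of the other 36 libraries exceeded the lowest of the 7, and the highest of them, 2.29%, was nonpregnant replicate 15, just outside the boundary. ENSBTAG00000001292 took 2.60%, 1.41%, 2.10%, 1.63%, 1.45%, 0.799% and 1.54% in the 7 libraries, against 0.0309% to 2.18% and a median of 0.680% in the others. This gene overlapped most, with 13 of the other 36 libraries above the lowest of the 7.

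Together these 3 genes held 4.25% to 8.08% of counts in the 7 libraries, with a mean of 5.52% ± 1.42 (SD, n = 7), and 0.479% to 4.27%, with a mean of 1.86% ± 0.906 (SD, n = 36), in the others. One other library, pregnant replicate 13 at 4.27%, exceeded the lowest of the 7. The difference of 3.66 points in the counts of these genes stands beside the 4.34 points of the whole share. What was left of the own 10 without them averaged 4.17% ± 0.621 over 8% (SD, n = 7) and 3.61% ± 0.810 in the others (SD, n = 36), and 21 of the other 36 libraries exceeded the lowest of the 7. These remainders do not hold equal numbers of genes. All 7 libraries over 8% had the 3 genes in their own 10, but some others had fewer or none, so their remainder summed more genes.

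The 7 libraries were not concentrated in the same order. ENSBTAG00000004796 was the largest count in 5 of them, ENSBTAG00000005574 in nonpregnant replicate 3 and pregnant replicate 16, and ENSBTAG00000001292 in none. Among the other 36 libraries, 16 had 1 of these 3 genes as their largest count, and ENSBTAG00000001292 was the largest in 10 of them. The 3 genes were the 3 largest counts in 3 libraries over 8% and in 5 others. In pregnant replicate 24, ENSBTAG00000004796 took 2.50%, ENSBTAG00000005574 1.05% and ENSBTAG00000001292 0.799%, the last lower than in any other of the 7, and the rest of its list took 4.13%. In pregnant replicate 16 ENSBTAG00000004796 was the lowest of the 7 at 1.00%, and the rest of its list took 5.28%, the highest of the 7.

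In all, 29 genes entered the list of at least 1 library. Of these, 16 were in lists of both sets, the 3 above included, 3 were in lists of libraries over 8% alone and 10 in lists of the others alone. Exactly 2 genes were in all 43 lists. ENSBTAG00000014534 was the largest count in 19 libraries, none of them over 8%. It took 0.802% to 1.45% of counts over 8%, with a median of 1.11%, and 0.399% to 1.79% in the others, with a median of 0.908%. ENSBTAG00000010156 took 0.488% to 0.880% over 8%, with a median of 0.604%, and 0.287% to 0.751% in the others, with a median of 0.477%. Both ranges overlapped, with 23 and 15 of the other 36 libraries above the lowest of the 7.

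Some list genes besides the 3 leading ones were also higher over 8%, at smaller shares. ENSBTAG00000054278 entered 5 lists over 8% and 4 of the others, with a median 3.73 times as high. The medians of ENSBTAG00000017280 and ENSBTAG00000049589 were 3.49 and 2.43 times as high. For these 3 genes 10, 13 and 10 of the other 36 libraries exceeded the lowest of the 7. Other list genes ran the other way. ENSBTAG00000026199 entered 24 lists, none of them over 8%, and took 0.197% to 0.352% of counts over 8% (median 0.261%), against 0.233% to 0.505% in the others (median 0.334%). By their means, 17 of the 29 list genes were higher over 8% and 12 lower, and for none did the values of the 7 and the 36 fail to overlap. These shares are not corrected for gene length, so they say which genes took the reads and not which had most RNA molecules.

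**Figure D2:**
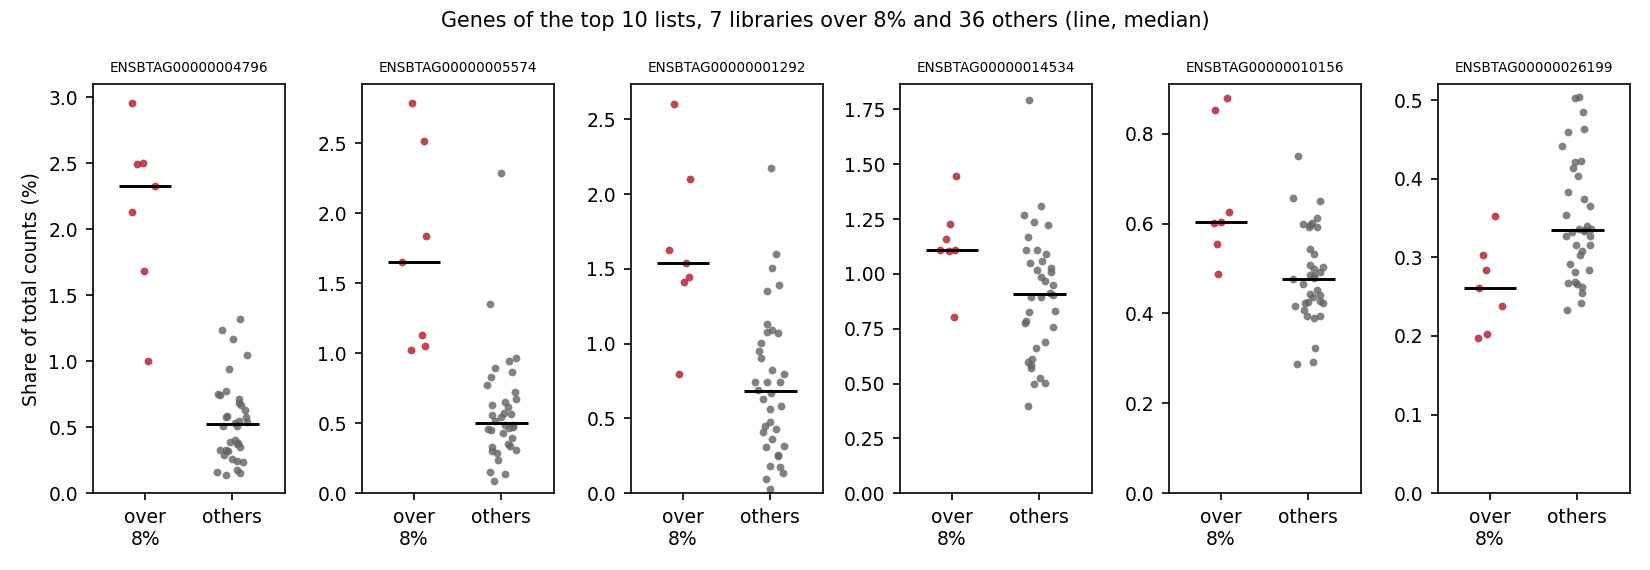
Share of total counts (%) of 6 genes of the top 10 lists, a panel each with its own axis from 0, in the 7 libraries over 8% (left) and the 36 others (right), with a point per library and a line at the median. The 3 genes at the left lie mostly higher over 8%, with the most overlap for ENSBTAG00000001292. ENSBTAG00000014534 and ENSBTAG00000010156 have somewhat higher medians over 8% and overlap, and ENSBTAG00000026199 lies lower over 8%.

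Below the 10 largest counts, the shares of the 2 sets overlapped, widely at ranks 11 to 20 but only narrowly at ranks 501 to 1000. Genes ranked 11 to 20 in their own library took 2.52% to 3.204% of counts over 8% (median 2.93%) and 2.06% to 3.37% in the others (median 2.48%). Ranks 501 to 1000 took 10.4% to 10.8% over 8% (median 10.6%), against 10.7% to 11.98% in the others (median 11.4%), and ranks 1001 to 5000 took 31.1% to 32.8% (median 32.0%), against 31.6% to 37.3% (median 34.9%). All are shares of 1 total, so the larger share that chose the 7 libraries leaves less for lower ranks. The largest genes that together held 50% of counts numbered 655 to 840 over 8% (median 761) and 631 to 1199 in the others (median 980). With the 29 list genes removed, that number was 995 to 1219 over 8% (median 1118) and 786 to 1440 in the others (median 1213.5), so the range of the 7 lay within that of the others.

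Neither the cows' labels nor the libraries' depth differed between these sets past the threshold. Pregnancy followed in 4 of 7 cows over 8% (57.1%, 95% Wilson interval 25.05% to 84.2%) and in 21 of 36 others (58.3%, 42.2% to 72.9%; two-sided Fisher's exact p = 1.00). Block 2 held 5 of the 7 (71.4%, 35.9% to 91.8%) and 17 of the 36 (47.2%, 31.99% to 63.0%; Fisher's exact p = 0.412). Total counts ran from 12651316 to 23572549 over 8% and from 11159501 to 20508214 in the others. The geometric mean total over 8% was 0.999 of that in the others (two-sided exact permutation p = 0.990). At an equal depth of 10472582 counts outside the list genes, 17905 ± 531 genes were detected over 8% (SD, n = 7) and 17855 ± 431 in the others (SD, n = 36; exact permutation p = 0.788). All 5 adjusted p-values were 1.00 (Benjamini-Hochberg), and with 7 libraries the intervals stayed wide.

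Progesterone (P4) in blood on the day of sampling, in a unit that the labels do not state, was 0.49, 0.46, 0.56, 1.79, 1.46, 0.98 and 0.36 in the 7 cows, in the order of share. In the other 36 cows it ran from 0.27 through a median of 0.745 to 1.88. The geometric means were 0.735 in the 7 cows and 0.708 in the 36, a difference of 0.05 on the log2 scale (SDs of 0.90, n = 7, and 0.74, n = 36; exact permutation p = 0.864). Within the blocks the differences had opposite signs. In block 1 the geometric mean was 1.62 in 2 cows over 8% and 0.641 in 19 others (exact permutation p = 0.0333, adjusted p = 0.238 over 8 within-block tests). In block 2 it was 0.537 in 5 cows over 8% and 0.791 in 17 others (exact permutation p = 0.0892, adjusted p = 0.238). The difference between the blocks was -1.89 on the log2 scale, block 2 minus block 1 (exact permutation of the sets within blocks, p = 0.00386, adjusted p = 0.0116 over 3 measures), and it rested on 2 cows of block 1.

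It was then tested whether genes outside the lists changed with the concentration. All 29 list genes were left out of both the test and the scaling, so that the counts that made the share entered neither. Of 16047 genes tested, 662 differed (4.13%; quasi-likelihood test of edgeR, fitted with block, adjusted p under 0.05): 394 rose (2.46%) and 268 fell (1.67%) in the 7 libraries over 8% relative to the 36 others. Before adjustment 3569 genes (22.2%) had a p under 0.05, and 802 is what independent genes with no difference would give on average. The genes that rose did so by a median of 0.80 on the log2 scale and those that fell by a median of -0.76, while the median over all tested genes was -0.05. Falls outnumbered rises without pregnant replicate 24 (707 rose and 831 fell), with the boundary at 9% (739 and 985) and with log2 share as a continuous term (1454 and 1523). More than a 2-fold change was seen in 136 of the 394 and 91 of the 268. For none of the 16047 genes were the 7 libraries fully separate from the 36 (0%). The libraries were set apart by their counts, not by a treatment, so these differences describe what varies together with the concentration.

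**Figure D3:**
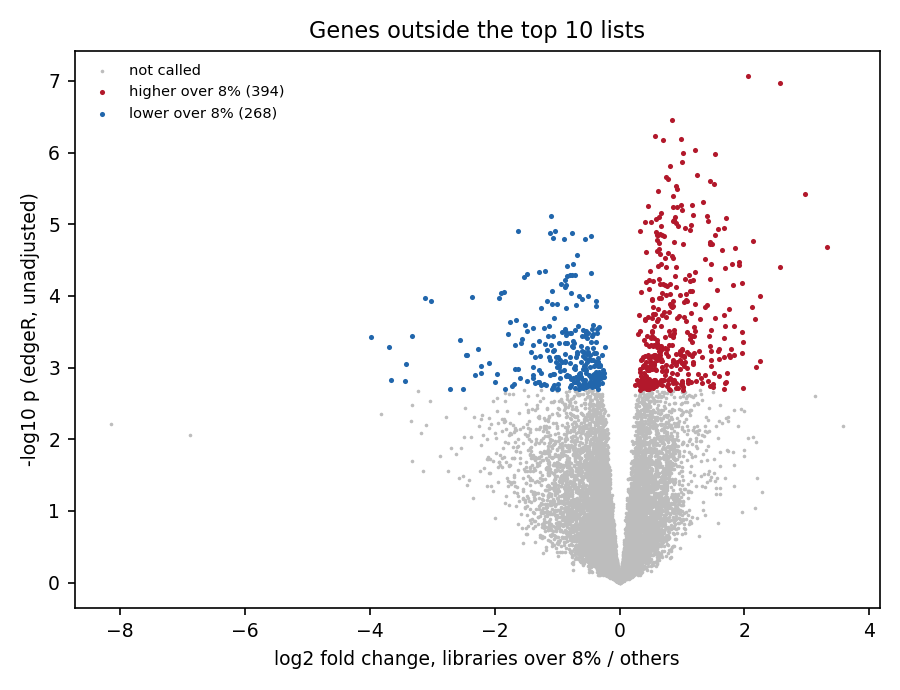
Each of the 16047 genes outside the lists, by log2 fold change (libraries over 8% divided by the others) and -log10 of the unadjusted edgeR p. Red points are the 394 genes called higher and blue points the 268 called lower over 8%.

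Calls were found at every level of expression tested. Among genes averaging under 1 CPM, the count scaled to library size, 0.772% of 1424 rose and 0.421% fell. Of the 8148 genes between 10 and 100 CPM 2.52% rose and 1.96% fell, and of the 2359 between 100 and 1000 CPM 4.92% rose and 2.12% fell. Of the 93 genes over 1000 CPM 4 rose (4.30%) and 0 fell at this threshold, with a median log2 fold change of 0.15 over all 93. That is close to the 4.13% called over all genes, and 4 calls are too few to compare directions. The 29 list genes were not in this test, and 12 of them had lower means over 8%. Counting precision rises with the level, and its part in these percentages was not tested.

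Among the genes of smallest p, ENSBTAG00000018563 rose 4.16-fold (log2 2.06 ± 0.32 SE; edgeR adjusted p = 0.000856). It had 44.8, 19.8, 146.6, 104.0, 84.4, 61.2 and 84.7 CPM in the 7 libraries, in the order of share. The others ran from 2.20 through a median of 18.01 to 72.5 CPM, and none of these 36 reached the median of the 7, 84.4 CPM. The highest of the others was nonpregnant replicate 15, which lay just under the boundary. The next 2 libraries by share did not stand out in this way: pregnant replicate 13 had 5.63 CPM and nonpregnant replicate 17 had 22.1 CPM. The log2 fold change was 2.09 in block 1 alone, where the call was lost (edgeR adjusted p = 0.243), and 2.06 in block 2 alone (edgeR adjusted p = 0.0139). Leaving out any 1 library gave 1.79 to 2.21 with an edgeR adjusted p of at most 0.00627.

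ENSBTAG00000031205, next by p among the genes called higher, was high in 1 library alone. It had 2.38, 100.7, 4.08, 3.44, 2.45, 4.23 and 3.96 CPM in the 7 libraries, against 1.5996 to 6.58 CPM (median 3.01) in the others. On the log2 scale its change was 2.56 ± 0.40 (SE; adjusted p = 0.000856 in edgeR). It became 0.29 without nonpregnant replicate 3 (edgeR adjusted p = 0.463), and it was 0.81 in limma voom (adjusted p = 0.0891).

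ENSBTAG00000004423 fell to 0.469 of its level (log2 -1.09 ± 0.22 SE; edgeR adjusted p = 0.00362). It had 3.82 to 7.39 CPM in the 7 libraries (median 4.65) and 3.73 to 18.1 CPM in the others (median 10.9), and 2 of the 36 lay at or below the median of the 7. ENSBTAG00000000648 fell to 0.325 of its level (log2 -1.62 ± 0.33 SE; edgeR adjusted p = 0.00382). It had 0.492 to 5.26 CPM in the 7 libraries (median 1.57) and 1.90 to 12.1 CPM in the others (median 6.25), and none of the 36 lay at or below the median of the 7. Leaving out any 1 library ended neither call (edgeR adjusted p of at most 0.0181 and 0.0213), and both genes overlapped between the sets. Block 1 alone, with 2 libraries over 8%, ended both calls, with a log2 fold change of -0.85 for ENSBTAG00000004423 (edgeR adjusted p = 0.765) and -1.08 for ENSBTAG00000000648 (edgeR adjusted p = 0.763).

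**Figure D4:**
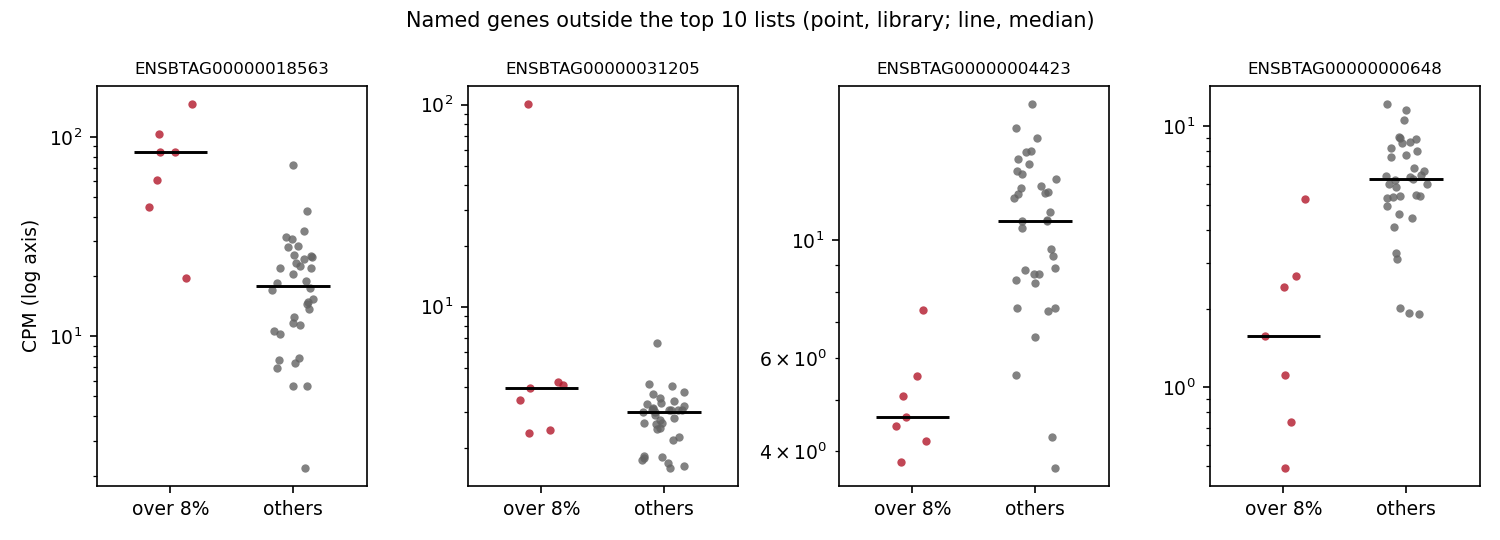
CPM (log axis, own range in each panel) of 4 genes outside the lists in the 7 libraries over 8% (left) and the 36 others (right), with a point per library and a line at the median. ENSBTAG00000018563 lies higher and ENSBTAG00000004423 and ENSBTAG00000000648 lie lower over 8%, while ENSBTAG00000031205 has a single library at 100.7 CPM.

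Within block 2 alone, 5 libraries against 17, the edgeR test called 282 genes, and within block 1 alone, 2 against 19, it called 4. For a difference between blocks in this change, edgeR's interaction test called 0 of 16047 genes. It had 455 at an unadjusted p under 0.05, where independent genes with no difference would give 802 on average. With 2 libraries over 8% in block 1, the 0 calls do not show that the blocks were alike. Among the 36 other libraries, the share itself was fitted on the log2 scale. There the level of 132 genes was associated with it (0.823%; edgeR, adjusted p under 0.05), with 2104 at an unadjusted p under 0.05. Since those 36 libraries also serve in the comparison above, the 2 fits are not independent. Per doubling of the share, ENSBTAG00000018563 changed by 1.69 ± 0.62 on the log2 scale within the 36 (SE; edgeR adjusted p = 0.194), ENSBTAG00000004423 by -1.01 ± 0.39 (adjusted p = 0.226) and ENSBTAG00000000648 by -0.72 ± 0.44 (adjusted p = 0.522). ENSBTAG00000031205 changed by 0.23 ± 0.37 (adjusted p = 0.849).

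The first 5 principal components of log2 CPM outside the lists were also compared, a choice made after the data were seen. Each is signed so that its mean is higher over 8%. The first, with 19.8% of the variance, averaged 36.3 ± 40.7 over 8% (SD, n = 7) and -7.05 ± 35.6 in the others (SD, n = 36), a difference of 43.3 (exact permutation p = 0.00638, adjusted p = 0.0178 over 5 components). It was 38.2 in block 1 and 42.2 in block 2. Scores of 6 of the 7 libraries lay between 18.5 and 87.5, while pregnant replicate 24 had -34.5. The sets overlapped: the other 36 reached 45.7, and 4 of them scored above the median of the 7, 34.8. The third component, with 8.42% of the variance, averaged 23.2 ± 11.7 over 8% (n = 7) and -4.51 ± 25.3 in the others (n = 36; exact permutation p = 0.00711, adjusted p = 0.0178). All 7 libraries scored between 13.6 and 48.1 on it, and 8 of the other 36 scored above the lowest of them. The other 3 components missed the threshold, each with an adjusted p of 0.146.

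To see how far each library shared the pattern, the genes were called again without it and the library was then set beside the median of the other libraries. With pregnant replicate 14, nonpregnant replicate 3, pregnant replicate 4 and pregnant replicate 16 left out in turn, 291, 195, 244 and 205 genes were called. The library left out lay on the called side for 93.5%, 97.9%, 93.4% and 90.7% of them. Nonpregnant replicate 16 lay there for 93.2% of 544 genes and nonpregnant replicate 14 for 89.8% of 511. Thus 6 of the 7 libraries carried the pattern that the rest of the 7 showed.

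Pregnant replicate 24 did not. Without it 1538 genes were called, 707 higher and 831 lower, and it lay on the called side for 49.7% of them, with a median shift of -0.00436 on the log2 scale. It was the most deeply sequenced of the 43 libraries, at 23572549 counts. At equal depth it also had the fewest detected genes of the 7 outside the lists, 17063.5. The part of either in this was not tested. For ENSBTAG00000018563 it had 61.2 CPM, within the range of the 7 libraries (19.8 to 146.6 CPM) and below the 72.5 CPM of nonpregnant replicate 15. That gene was picked from a fit that included pregnant replicate 24. Just under the boundary, nonpregnant replicate 15 lay on the called side for 94.4% of genes and pregnant replicate 13 for 87.3%, while nonpregnant replicate 17 lay there for 62.1%. The remaining 33 libraries ran from 14.9% through a median of 50.6% to 89.5%, the last being pregnant replicate 23, whose share was 5.69%. Genes are not independent, so these percentages describe the libraries and test nothing.

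**Figure D5:**
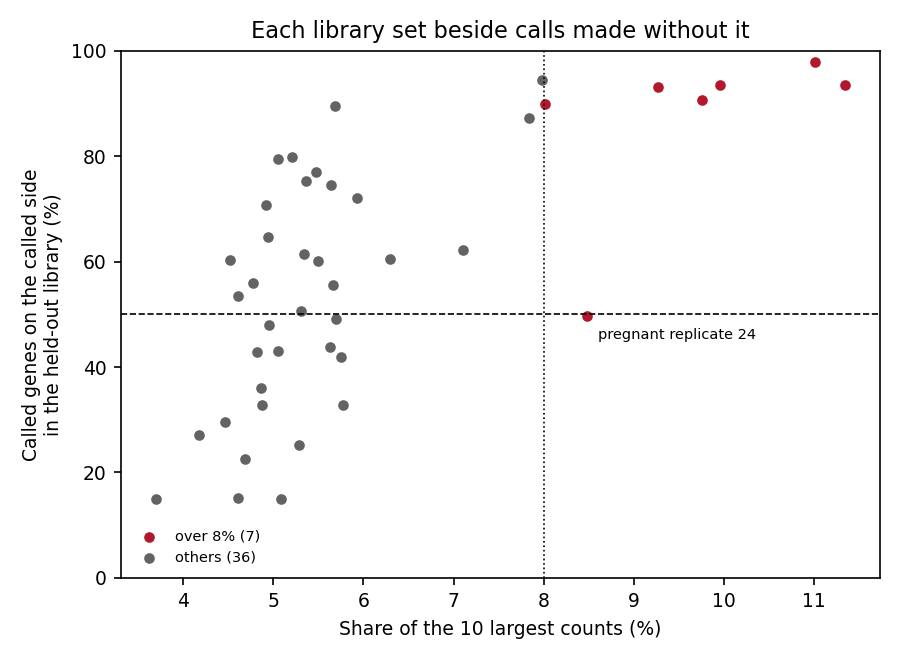
Each library's share of the 10 largest counts (%) against the percentage of genes, called without that library, for which it lay on the called side. The side is taken from the median of the libraries under 8%, without the library itself. The dashed line is 50% and the dotted line 8%. Of the libraries over 8%, 6 lie between 89.8% and 97.9%, pregnant replicate 24 lies at 49.7%, and the 36 others spread from 14.9% to 94.4%.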

How the data were processed

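The authors deposited raw read counts for 27570 Ensembl gene identifiers in each of 43 libraries, per the file headers. Tools listed in the submitters' processing notes are HISAT2, HTSeq, Trim Galore 0.4.4 and FastQC 0.11.7, with ARS-UCD1.2 as the build, and no settings are given there. Reads of overlapping or near-identical genes cannot be resolved. The reference table (ARS-UCD2.0) matched 0 identifiers, so the gene lists drawn up for cell types and pathways could not be used and identifiers are printed, 2 per direction for the tested genes. The rule took the genes of smallest p with a mean log2 CPM of at least 0, and the genes of the lists by their number and share.

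From the deposited counts, each library's 10 largest were summed and divided by its total. The 29 genes in any list were then removed, and the remaining 27541 were filtered (filterByExpr, minimum count 10), scaled by TMM and tested with edgeR 4.0.16 (robust quasi-likelihood F-test, R 4.3.3, block as covariate, Benjamini-Hochberg, threshold 0.05). CPM values are scaled to the counts outside the lists. TMM factors ran from 0.910 to 1.07 over 8% and 0.807 to 1.13 in the others. Each SE is the size of the log2 change over the root of F. Log2 CPM used a prior count of 2, and the comparison of left-out libraries used CPM plus 0.5. Labels and depth were tested by exact permutation or Fisher's exact test, two-sided, and intervals cover counting error only. DESeq2 1.42.0 and limma 3.58.1 were alternatives.

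Members, lists and tests were chosen with earlier results of these data known. Counts were also simulated for the 16047 genes in these 7 and 36 libraries. Changes of 1.5-fold, 2-fold and 3-fold were set in 67, 67 and 66 genes. Each gene was drawn independently of the others, whereas genes in the real libraries are not independent. In the simulated counts 43.3% of 1.5-fold, 70.2% of 2-fold and 89.4% of 3-fold changes were called in their direction, with 5 false calls. These values hold for the simulated counts, and how many of the genes called in the real libraries were false was not tested. Each cow is 1 sample.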

Additional observations from a re-analysis of the deposited data

Results flagged for a closer look

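Among the 7 libraries over 8%, 44 measures were checked for a library far from the rest, and 4 had one. Chance alone flags about 1 in 20 normally distributed measures, and whether these were so distributed was not tested. Pregnant replicate 24 stood apart in the percentage of genes on the called side, at 49.7%, with the next library at 89.8%. Pregnant replicate 16 stood apart on the third principal component, at 48.1, with the next at 24.9. ENSBTAG00000055240, a gene that entered only the list of nonpregnant replicate 12, took 0.164% of counts in pregnant replicate 14 and at most 0.0124% in the other 6 libraries over 8%. ENSBTAG00000031205 had 100.7 CPM in nonpregnant replicate 3 and at most 4.23 CPM in the other 6. This gene was named for its small p, and its call was lost without that library, so its flag is not a separate result.

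The P4 difference between libraries over 8% and the others ran in opposite directions in the blocks, with a gap of -1.89 on the log2 scale, block 2 minus block 1 (exact permutation p = 0.00386, adjusted p = 0.0116 over 3 measures). It rested on 2 cows of block 1, with P4 of 1.79 and 1.46.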

How the results depend on the processing

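The 662 genes called became 1157 with DESeq2, 1727 with limma voom, 1013 with detected genes as a covariate, 2977 with log2 share as a continuous term, 1942 and 1724 with the boundary at 7% and 9%, 1287 with libraries chosen by their 20 largest counts, 1019 without the 3 libraries between 7% and 8%, 282 in block 2 alone, 4 in block 1 alone and 132 with log2 share within the 36 others; the cause was not tested. The 6 other settings gave 556 to 847. Rises were 59.5% of calls, and 70.5% with no low-count filter (392 of 556), 70.3% with CPM above 1 in at least 7 libraries (496 of 706), 50.04% with DESeq2, 50.6% and 42.9% with the boundary at 7% and 9%, 48.8% with the continuous share and 46.0% without pregnant replicate 24. They were 100% of the 4 calls in block 1 alone, and 74.9%, 76.2% and 70.9% without nonpregnant replicate 3, pregnant replicate 4 and nonpregnant replicate 8. Leaving out 1 library gave 195 to 1538 calls, with 195 without nonpregnant replicate 3, 205, 244, 291 and 1538 without pregnant replicates 16, 4, 14 and 24, and 490 to 905 without any other.

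ENSBTAG00000031205 had a log2 fold change of -0.14 in block 1 alone, where the 3 other named genes lost their calls without changing sign. The log2 P4 difference of 0.05 was 1.33 in block 1 (exact permutation p = 0.0333), -0.56 in block 2, -0.0720 with the boundary at 7% and -0.0853 in ranks. At 7%, total counts differed by 0.0540 (log2) and block 2 membership by -1.52 points. In block 2, total counts differed by 0.10 (log2) and detected genes by -231. Detected genes without rarefaction differed by -10.0, and the pregnancy rate at 9% by 2.11 points. P4 in block 1 alone had an unadjusted p under 0.05 among these, and its adjusted p was 0.238 over 8 within-block tests. The difference in share was 3.83 points for the 5 and 4.64 for the 20 largest counts. The share without mitochondrially encoded genes was not run, for want of symbols. No paired analysis was possible because no cow gave a second sample, and replicate numbers are names. The fits within the 36 others and without the 3 libraries, the interaction with block, the principal components and the comparison of left-out libraries were chosen after seeing the data.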
